A study of Mus musculus with 5 samples.

Results

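The regions described here are stretches of mouse autosomes that were called accessible in both non-transgenic libraries of γδ T thymocytes and in neither library of γδ T thymocytes from Sox13-transgenic animals. ATAC-seq uses a transposase that inserts sequencing adapters where DNA is open, and the deposited result is 1 list of peaks per library. The peaks of all 5 lists were merged wherever they overlapped by 1 bp or more, and a merged region counted as present in each library that had a peak in it. The members were thus chosen by the presence or absence of peaks in the 4 γδ lists. Of 157434 merged regions, 153269 were autosomal and 28708 of these were present in both non-transgenic γδ libraries. The rule kept 3688 of the 28708, or 12.8% (95% Clopper-Pearson interval 12.5 to 13.2). Among these member regions, 2237 also held a peak of double-positive (DP) thymocytes and 1451 did not.

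The transgenic SOX13hi and transgenic SOX13lo cells were CD24+ γδ thymocytes of genotype TCRbeta KO.Sox13tg+.Sox13 ECFP KI/+, sorted as CFP-high and as CFP-low or negative. The SOX13hi and SOX13lo cells were the same fractions of TCRbeta KO.Sox13 ECFP KI/+ animals. DP thymocytes came from wild-type animals, and all animals are labelled C57BL/6. All 4 γδ libraries therefore share the TCRbeta knockout and a CFP reporter inserted in 1 Sox13 allele, and the DP library has neither. The promoter of the transgene, the number, age and sex of the animals and any pooling are not stated in the labels. Each group is 1 library, so nothing here has a replicate check or a p-value. All intervals on shares are 95% Clopper-Pearson ones, which cover counting error only and treat regions as independent. Where a count is 0, the limit given is instead 3 counts of the total.

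γδ T cells carry an antigen receptor built from γ and δ chains and arise in the thymus beside the αβ lineage, of which DP thymocytes, bearing CD4 and CD8, are an intermediate stage. SOX13 is an HMG-box transcription factor, a class of protein that binds the minor groove of DNA and bends it. It is known in mice as a marker and regulator of early γδ thymocytes, in particular of those that go on to make IL-17. Open regions away from gene starts often hold enhancers, which change between lineages more than promoters do. The peaks are on the mm9 genome, and no sequence or gene annotation of that build was used here. Member regions are therefore given by position, without gene names, sequences or motifs, and the labelled cell types were not checked against marker genes.

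The lists differ in length, and this bears on every count below. The transgenic SOX13hi list held 63932 peaks and the transgenic SOX13lo list 33155, against 54435 in SOX13hi, 67482 in SOX13lo and 113877 in DP. Read depth and the meaning of the deposited score are unknown. The score was used only as a percentile, the share of a list's peaks with a lower score (tied scores take their middle rank). The peaks of the SOX13lo list are all named SOX13hi in the file, and the transgenic SOX13hi and DP libraries carry the same index in the labels. The sample labels were followed. Absence means only that the authors' list has no peak there.

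In both lists that hold them, the member regions were mostly weaker and narrower than the other regions of both non-transgenic libraries. Their highest peak had a median score of 9 in SOX13hi, against 25 for the 25020 other regions of both non-transgenic libraries. In SOX13lo the medians were 13 and 41. As percentiles, the median member stood at 31.6 in SOX13hi (quartiles 9.14 and 48.5) and at 44.4 in SOX13lo (quartiles 28.4 and 61.2). The other regions had median percentiles of 72.5 in SOX13hi and 78.6 in SOX13lo. In SOX13hi, 951 members (25.8%) sat at 7, the lowest score of that list, and 476 (12.9%) sat at 8, the lowest of the SOX13lo list. All peaks tied at the lowest score take the middle of their ranks, percentile 9.14 in SOX13hi and 8.05 in SOX13lo. By these ranks the members' share at the lowest score was above that of the whole list in SOX13hi and below it in SOX13lo. The peaks of a member covered a median of 29 bp in SOX13hi and 58 bp in SOX13lo, against 108 and 137 bp for the other regions. The median peak of the whole list was 49 bp wide in SOX13hi and 58 bp in SOX13lo. The median of the 3688 members was thus below that of the whole list in SOX13hi and equal to it in SOX13lo. In SOX13lo it was 69 bp for members with DP and 29 bp for members without. Members without DP were thus narrow against the whole list in SOX13lo as well. A member's value covers all its peaks in a list, and the list median is of single peaks. The shortest peak in every list was 28 bp. Only 504 members (13.7%) reached the 50th percentile in both lists, 25 reached the 75th and 2 reached the 90th. Among the other regions, 16987 (67.9%), 10104 and 4277 did.

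Members with and without a DP peak had much the same standing in SOX13hi, with a median percentile of 31.6 in each set. In SOX13lo the medians were 48.3 for members with DP and 39.8 for members without. Members with DP were wider, with a median of 151 bp against 83 bp. A DP peak widens a merged region by construction and can join neighbouring peaks. In 335 members (9.08%), all with DP, the SOX13hi and SOX13lo peaks did not touch each other and were joined by a DP peak.

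The share of regions that were absent from both transgenic lists fell steeply with rank. Ranks were taken as the lower of the 2 percentiles in the non-transgenic lists. Below the 25th percentile, 1939 of 5420 regions (35.8%) were members, and from the 25th to the 50th 1245 of 5797 (21.5%). From the 50th to the 75th percentile the share was 6.51%, from the 75th to the 90th 0.393%, and above the 90th 2 of 4279 regions (0.0467%). These presences chose the members, so the shares are a description. The reverse class, regions in both transgenic and neither non-transgenic library, followed the same course by rank in the transgenic lists. There 448 of 2901 regions (15.4%) were in the class below the 25th percentile, 7.55% from the 25th to the 50th and 2.32% from the 50th to the 75th. From the 75th to the 90th the share was 0.576% (0.357 to 0.879), not below the 0.393% (0.249 to 0.589) of members. Above the 90th it was 0 of 2799, which allows a share of up to 0.107% (3 counts of 2799).

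**Figure D1:**
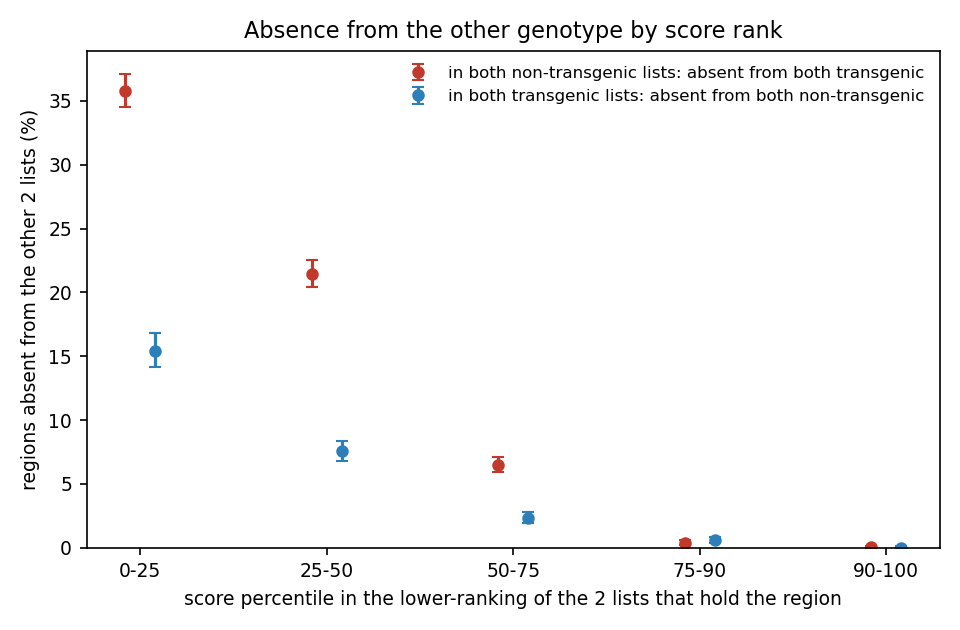
Share of autosomal regions absent from the other genotype's 2 lists (y axis, %), by the lower of the 2 score percentiles of the region (x axis); red, regions of both non-transgenic libraries absent from both transgenic ones; blue, the reverse; bars are 95% Clopper-Pearson intervals. The red shares run from 35.8% in the lowest bin to 0.0467% in the highest, and are above the blue ones up to the 75th percentile.

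Many members lay beside a transgenic peak that missed them by a short distance. A peak of either transgenic library lay within 200 bp of 1720 members (46.6%) and within 1000 bp of 2452 (66.5%). Of the 3688 members, 1968 thus had none within 200 bp and 1236 none within 1000 bp. Such neighbours were not particular to members. Of the 907 regions of the reverse class, 489 had no non-transgenic peak within 200 bp and 343 none within 1000 bp. The median distance was 240 bp, with 325 bp for members with DP and 138 bp for members without. The neighbour was most often a transgenic SOX13hi peak: 1591 members had one within 200 bp, and 662 had a transgenic SOX13lo peak that near. These neighbours were ordinary peaks of their lists, with a median percentile of 50.02 in transgenic SOX13hi and 48.1 in transgenic SOX13lo. Close to the 1 bp threshold itself, 179 members had a transgenic peak 1 to 10 bp away. On the other side of it, 299 regions were kept out by an overlap of 1 to 10 bp between a transgenic and a non-transgenic peak. A further 273 were kept out although the transgenic peak touched only a DP peak of the same region.

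Some members lay near a region present in all γδ libraries and others stood apart. A region present in all 4 γδ libraries lay within 1000 bp of 1463 members (39.7%, 38.1 to 41.3). Among the 8805 regions of both non-transgenic libraries that transgenic SOX13hi also held and transgenic SOX13lo did not, 29.4% (28.5 to 30.4) had such a neighbour. Of the members without DP, 44.2% lay that near to one, and of those with DP 36.7%. At the other end, 1236 members (33.5%) were more than 1000 bp from any transgenic peak and 611 (16.6%) more than 10000 bp. The 1236 were 843 with DP and 393 without, and 174 of them reached the 50th percentile in both non-transgenic lists. The median percentile in SOX13hi was 31.6 for members beyond 1000 bp and also for those within 200 bp.

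**Figure D2:**
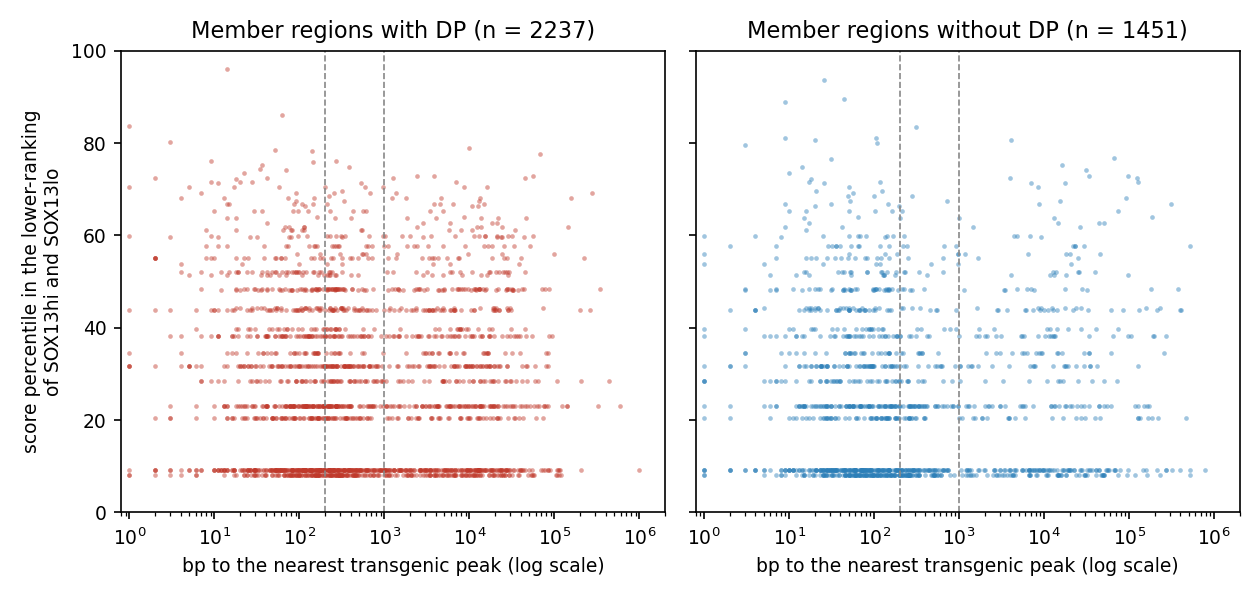
Each point is 1 member region: distance to the nearest peak of either transgenic library (x axis, bp, log scale) against the lower of its score percentiles in SOX13hi and SOX13lo (y axis); left, 2237 members with DP, right, 1451 without; dashed lines mark 200 and 1000 bp. Points above the 75th percentile number 25, and 18 of them lie left of the 200 bp line.

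The strongest members show this most plainly. Of the 25 members at or above the 75th percentile in both lists, 18 had a transgenic peak within 200 bp and 5 had none within 1000 bp. Among the 10 highest-ranking members with DP, 7 had one within 200 bp, and among the 10 without DP, 8. Thus 15 of these 20 regions had a transgenic peak within 200 bp, and 3 had none within 1000 bp. In transgenic SOX13hi the nearest peaks of the 15 ranged widely, from percentile 9.48 to 98.7. The lowest were those at chr16:46009002-46009171 and chr12:110030367-110030642, both at 9.48, and at chr10:84647032-84647296, at 23.9. The next lowest was at 59.2.

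The highest-ranking member with DP was chr1:191654989-191655128. The nearest transgenic SOX13hi peak, 28 bp wide with score 187 (percentile 98.7), lay 14 bp away, and the nearest transgenic SOX13lo peak 31929 bp away. Inside the region the SOX13hi peak had score 182 (percentile 98.5), the SOX13lo peak 170 (96.0) and the DP peak 907 (99.9). The SOX13hi, SOX13lo and DP peaks in the region and the transgenic SOX13hi peak beside it were thus each among the strongest of their lists. Transgenic SOX13lo had no peak within 1000 bp. At chr19:55483086-55483175 the nearest transgenic SOX13hi peak had score 65 (percentile 91.1) at 62 bp, and the SOX13hi and SOX13lo peaks each had score 65 (90.4 and 86.1). The nearest transgenic SOX13lo peak was 92000 bp from that site, and DP had a peak at percentile 96.0.

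At chr3:103188923-103189005 a transgenic SOX13hi peak of percentile 86.0 lay directly beside the region, 1 bp away, and a transgenic SOX13lo peak of percentile 10.2 lay at 221 bp. The member's own peaks stood at 92.5 in SOX13hi, 83.7 in SOX13lo and 97.2 in DP. The region at chr5:134758648-134758793 likewise had a transgenic SOX13hi peak, of percentile 86.7, at 3 bp. At both sites the non-transgenic peaks were 29 to 44 bp wide. The member at chr13:19269650-19269720 had a transgenic SOX13hi peak of percentile 68.4 at 9 bp, and its own peaks stood at 76.1 in SOX13hi, 79.0 in SOX13lo and 89.0 in DP.

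Of the 10 named members with DP, 2 had no transgenic peak within 1000 bp. At chr5:3420855-3421152 the nearest transgenic SOX13hi peak was 9904 bp away and the nearest transgenic SOX13lo peak 39884 bp. The region held a SOX13hi peak of 246 bp (score 33, percentile 78.9), a SOX13lo peak of 229 bp (score 47, percentile 81.1) and a DP peak of percentile 67.4. At chr10:120626212-120626530 the nearest transgenic peaks were 67141 bp away in transgenic SOX13hi and 93158 bp in transgenic SOX13lo. Here SOX13hi had a peak of 28 bp (score 31, percentile 77.6), SOX13lo one of 319 bp (score 65, percentile 86.1), and DP only a peak at 5, the lowest score of its list. No other peak of any library lay within 10 kb of that region. The remaining named members with DP were on chromosomes 1, 16 and 11, with a transgenic SOX13hi peak at 51, 141 and 271 bp.

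The highest-ranking member without DP was chr16:31201308-31201342, a region of 35 bp. The nearest transgenic peaks were at 80 bp in transgenic SOX13hi (percentile 95.1) and at 26 bp in transgenic SOX13lo (88.4). Its SOX13hi peak had score 88 (percentile 93.7) and its SOX13lo peak score 143 (94.7), and a DP peak lay at 24 bp. All 5 libraries thus had a peak in the region or within 100 bp of it. At chr18:21104906-21104965 the nearest transgenic SOX13hi peak (percentile 90.6) was at 44 bp and the nearest transgenic SOX13lo peak at 14970 bp. The SOX13hi and SOX13lo peaks stood at percentiles 89.5 and 94.97, and the nearest DP peak was at 181 bp.

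At chr8:4613452-4613795 the nearest peaks in transgenic SOX13hi and transgenic SOX13lo, at 311 and 316 bp, were among the highest of their lists (percentiles 99.7 and 98.2). The region held peaks of 344 bp in SOX13hi (score 77, percentile 92.3) and 272 bp in SOX13lo (score 54, percentile 83.4). At chr18:86771179-86771448 a transgenic SOX13hi peak of percentile 61.4 lay at 9 bp, and the nearest transgenic SOX13lo peak was 885337 bp away. The SOX13hi and SOX13lo peaks there had percentiles 81.2 and 82.1, and the nearest DP peak was 110891 bp away. The 3 γδ libraries other than transgenic SOX13lo thus had peaks here, far from any DP peak. A similar site, chr13:95833500-95833754, had a transgenic SOX13hi peak at 3 bp, with SOX13hi and SOX13lo peaks at percentiles 79.5 and 87.2 and the nearest DP peak at 44904 bp.

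Only 1 of the 10 named members without DP was more than 1000 bp from any transgenic peak. At chr4:54540618-54540677 the nearest transgenic SOX13hi peak, at the lowest score of 7, was 4095 bp away, and the nearest transgenic SOX13lo peak 701637 bp. The region had a SOX13hi peak of 60 bp (percentile 80.6) and a SOX13lo peak of 29 bp (87.9), and a DP peak lay 42 bp from it. Beyond the 20 named, 2 further members reached the 75th percentile in both lists with no transgenic peak within 1000 bp. They were picked after their values were seen. At chr13:111420160-111420394 the nearest transgenic peak was 65521 bp away, and the SOX13hi and SOX13lo peaks had percentiles 76.9 and 78.6. At chr13:104202738-104202901 it was 16250 bp away, and they had 75.2 and 78.1. DP had no peak within 10 kb of either, and SOX13hi and SOX13lo had 1 each.

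The rule did not ask for presence in DP, although DP peaks took part in the merging. Member regions were met by a DP peak less often than the other regions of both non-transgenic libraries: 60.7% (59.1 to 62.2) against 87.7%, with 84.2% over all 28708. Regions that transgenic SOX13hi also held and transgenic SOX13lo did not had a DP share of 79.2% (78.3 to 80.0). Those present in both transgenic libraries had 93.1% (92.7 to 93.5). The share of all autosomal regions with any γδ peak was 49.6%. A low DP share was not particular to members. In the reverse class it was 53.4% (50.1 to 56.6), against 90.6% (90.1 to 91.0) of the other regions of both transgenic libraries.

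The difference between members and the other regions of both non-transgenic libraries was also seen at like rank. Below the 25th percentile 57.7% (55.5 to 59.9) of members held a DP peak, against 75.1% (73.3 to 76.9) of regions also in transgenic SOX13hi only and 85.2% (82.7 to 87.4) of regions in both transgenic libraries. From the 50th to the 75th percentile the shares were 65.6% (61.1 to 69.8), 80.8% and 90.7%. From the 75th to the 90th percentile 11 of 23 members held one, 47.8% with an interval of 26.8 to 69.4, and above that only 2 members were left. With DP kept out of the merging and looked up afterwards, 64.2% (62.7 to 65.7) of 4057 members met a DP peak, against 79.5% and 93.1% of the other 2 sets. In that merging, among regions up to 50 bp wide the 3 shares were 55.1%, 74.5% and 88.0%, and among regions over 100 and up to 200 bp 71.0%, 79.9% and 88.2%. Over 200 bp they were 70.2% (64.1 to 75.9), 82.3% and 94.8%.

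**Figure D3:**
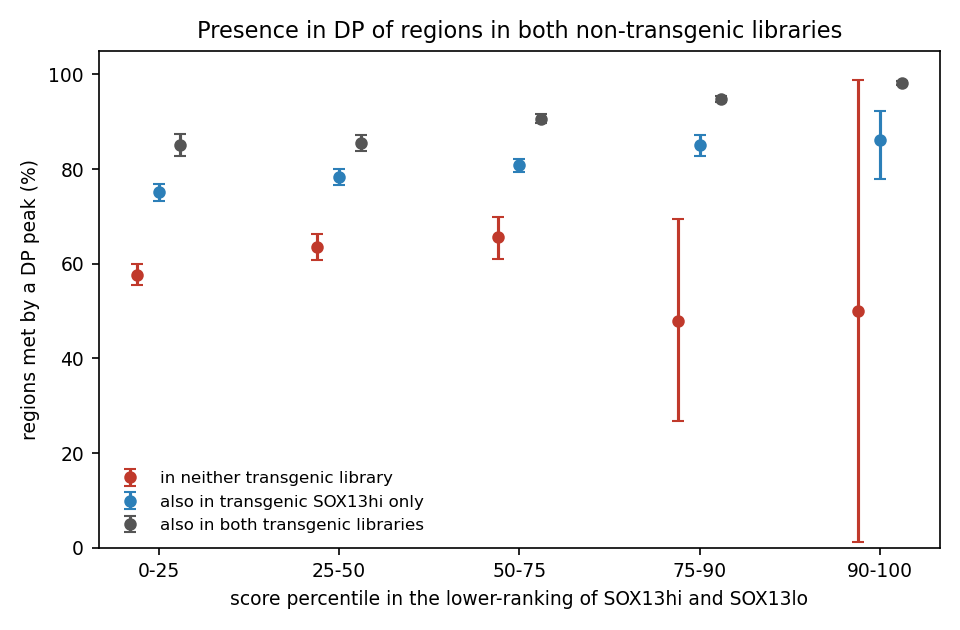
Share of autosomal regions of both non-transgenic libraries that held a DP peak (y axis, %), by the lower score percentile in SOX13hi and SOX13lo (x axis); red, member regions, blue, regions also in transgenic SOX13hi only, grey, regions in both transgenic libraries; bars are 95% Clopper-Pearson intervals. Red lies below blue and blue below grey in each bin up to the 90th percentile, with 57.7%, 75.1% and 85.2% in the lowest; the last red point stands on 2 regions.

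Where DP had a peak, its rank was lower in members up to the 75th percentile of the non-transgenic lists. The best DP peak of the 2237 members with DP had a median percentile of 68.5 in the DP list (quartiles 53.0 and 78.6), and that of the other regions with DP 88.4. At like rank the gap was smaller. From the 50th to the 75th percentile in the non-transgenic lists, the DP peak had a median percentile of 73.2 in 314 members, 81.0 in regions also in transgenic SOX13hi only and 87.3 in regions of both transgenic libraries. From the 75th to the 90th percentile it was 89.0 in 11 members, 88.1 in regions also in transgenic SOX13hi only and 92.8 in regions of both transgenic libraries, and above that 1 member was left. DP is the longest list and comes from animals that differ from the γδ donors in cell type, TCRbeta and reporter at once, and these cannot be told apart.

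The DP share was also taken by distance. Of the 1720 members with a transgenic peak within 200 bp, 51.05% (48.7 to 53.4) held a DP peak. From there to 1000 bp the share was 70.5% (67.0 to 73.8), from 1000 to 10000 bp 72.5% (68.8 to 75.9), and beyond 10000 bp 63.8% (59.9 to 67.6). All 4 shares were below the 87.7% of the other regions. A DP peak that reaches a close transgenic peak joins it to the region and ends its membership, so the merging lowers the first share. With DP left out of the merging the 4 shares were 61.7% (59.7 to 63.8), 70.0% (66.6 to 73.4), 69.5% (65.5 to 73.3) and 61.3% (57.2 to 65.3).

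The members were spread over all 19 autosomes. As a share of the regions of both non-transgenic libraries they ran from 9.62% (8.03 to 11.4) on chromosome 17 to 14.4% (12.8 to 16.1) on chromosome 3. Chromosome 11 had 10.1% and chromosome 7 10.6%, both low, whereas chromosomes 2, 6 and 13 had 14.1% to 14.2%. Chromosome 2 held the most members, 340 of its 2405 such regions. The share of members with DP ran from 53.7% on chromosome 16 to 68.2% on chromosome 9.

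Most members stood alone. Chained across gaps of up to 10 kb, they formed 3309 groups, of which 2982 were single regions, 283 pairs, 36 groups of 3 and 8 of 4. In 100 kb windows, 2777 of the 2905 windows with a member held 1 or 2. No window held more than 6.

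The window with most members was chromosome 6 at 136800001 to 136900000, with 6 (exact Poisson interval 2.20 to 13.1) among 14 regions of both non-transgenic libraries. It held 16 regions in transgenic SOX13hi and 8 in transgenic SOX13lo, against 19 in SOX13hi, 22 in SOX13lo and 34 in DP. All 5 libraries thus had regions in this window, and 6 of its 14 regions of both non-transgenic libraries lacked a transgenic peak. A group of 4 members at chr6:136883830-136893349 contained 4 peaks in each transgenic library, 11 in SOX13hi, 11 in SOX13lo and 13 in DP. A window on chromosome 14 at 41700001 to 41800000 held 5 members, 4 of them over 1000 bp from any transgenic peak. It had 11 and 7 regions in transgenic SOX13hi and transgenic SOX13lo, against 18 in SOX13hi, 29 in SOX13lo and 35 in DP. With lists of equal length it held 3 members, not all of them among these 5. It then had 5 and 7 regions in the transgenic libraries against 9, 12 and 7 in SOX13hi, SOX13lo and DP. The other windows with 5 or 6 members then held 1 member each, except that on chromosome 8 at 129100001, which held 2.

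The window on chromosome 10 at 8200001 to 8300000 had a different relation to DP. It held 5 members, none with DP, and 2 DP regions in all. The transgenic SOX13hi and SOX13lo libraries had 10 and 6 regions there, against 12 in SOX13hi and 18 in SOX13lo. Of its members, 4 lay in 1658 bp, at chr10:8237542-8239199, the tightest of the groups of 4. That stretch held 5 transgenic SOX13hi and 2 transgenic SOX13lo peaks, against 8 in SOX13hi, 9 in SOX13lo and 1 in DP. Every member in it had a transgenic peak within 1000 bp.

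On chromosome 13 at 19400001 to 19500000, 5 members, 1 of them with DP, stood among 18 regions of both non-transgenic libraries. The window had 29 and 7 regions in the transgenic libraries, against 33, 39 and 16 in SOX13hi, SOX13lo and DP. A group of 4 members at chr13:19430616-19437697 contained 8 transgenic SOX13hi peaks and 1 transgenic SOX13lo peak, against 14 in SOX13hi, 13 in SOX13lo and 3 in DP. The stretch was picked for its members, so these peak counts are a description. For transgenic SOX13lo, fewer open sites and a shorter list cannot be told apart in these counts.

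The other windows with 5 members were on chromosome 14 at 79900001, chromosome 16 at 76300001 and chromosome 8 at 129100001. They were denser in DP, with 36, 76 and 69 DP regions, and had 14, 12 and 17 in transgenic SOX13hi and 4, 6 and 8 in transgenic SOX13lo. SOX13hi had 15, 14 and 20 regions in them and SOX13lo 23, 20 and 27. In the chromosome 14 window, 4 members lay at chr14:79915605-79921515, where there was 1 peak in each transgenic library, 5 in SOX13hi, 10 in SOX13lo and 16 in DP. Of the 20 windows with 4 members, those named were the ones with the highest share of members among the regions of both non-transgenic libraries. The window on chromosome 7 at 149200001 had 4 of 5 such regions, and that on chromosome 1 at 157600001 had 4 of 6. With lists of equal length the window on chromosome 1 had 3 members and that on chromosome 7 had 0. The window on chromosome 1 at 187000001 held 4 of 7 and, with lists of equal length, 0 members. A further group of 4 members, 1 with DP, lay at chr1:183769812-183773172. It contained 7 transgenic SOX13hi and 5 transgenic SOX13lo peaks, against 8 in SOX13hi, 7 in SOX13lo and 10 in DP, and included the named member at chr1:183773021-183773172.

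The count of members was set beside the other classes of 2 libraries present and 2 absent. The reverse class, in both transgenic and neither non-transgenic library, held 907 of 18492 regions (4.90%), so members were 4.07 times as many. Regions in both SOX13hi and neither SOX13lo library numbered 3755, and regions in both SOX13lo and neither SOX13hi library 885. The 2 classes that require a peak in transgenic SOX13lo, the shortest list, thus held 907 and 885 regions, and the 2 that require its absence 3688 and 3755. Taking the same number of highest-scoring peaks, 33155, from every list gave 1798 members and 916 regions of the reverse class, a ratio of 1.96. The classes by fraction then held 2085 and 1002. As shares of the regions of their own 2 libraries, members were then 9.37% and the reverse class 5.76%.

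The DP share was 60.7% (59.1 to 62.2) in members, 53.4% (50.1 to 56.6) in the reverse class and 49.5% (47.8 to 51.1) in regions of both SOX13hi and neither SOX13lo library. In lists of equal length they were 45.4% (43.1 to 47.7), 40.1% (36.9 to 43.3) and 35.6% (33.6 to 37.7). In regions of both SOX13lo and neither SOX13hi library it was 57.1% (53.7 to 60.4), and 45.6% (42.5 to 48.8) with lists of equal length, about that of the members.

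Dropping the short list from the rule changed little, and dropping the longer one changed much. Absence from transgenic SOX13hi alone gave 4328 regions, 2706 of them with DP. Absence from transgenic SOX13lo alone gave 12493, 9207 of them with DP. Of the 28708 regions of both non-transgenic libraries, 15575 (54.3%) were in both transgenic libraries, 8805 (30.7%) in transgenic SOX13hi only and 640 (2.23%) in transgenic SOX13lo only. Requiring that no transgenic peak lie within 1000 bp left 1236 members, and applied to the reverse class it left 343, a ratio of 3.60.

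**Figure D4:**
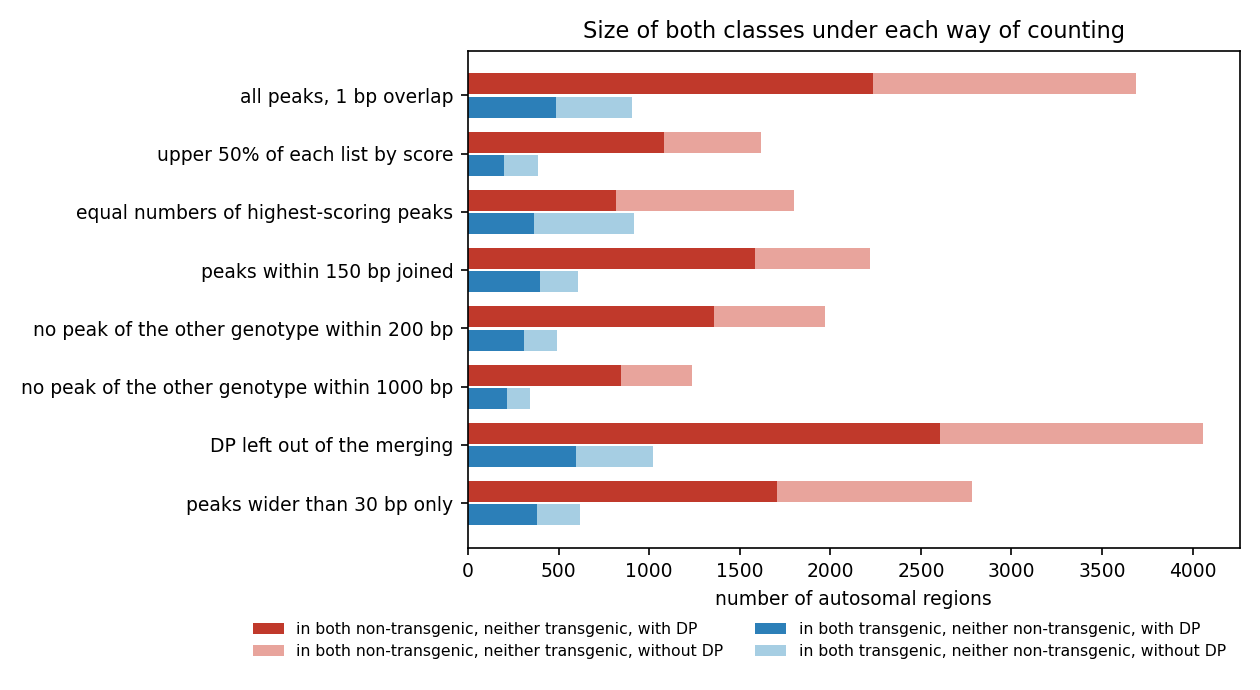
Number of autosomal regions (x axis) in both non-transgenic and neither transgenic library (red) and in both transgenic and neither non-transgenic library (blue) under each way of counting (rows); dark parts held a DP peak and pale parts did not. The red bar is the longer in every row, with 3688 against 907 using all peaks and 1798 against 916 with lists of equal length.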

How the data were processed

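For ATAC-seq, 40000 cells were sorted per library, per the labels. Each library was deposited as 1 headerless peak list. The build is mm9, per the submitters' processing notes. Not given in the sources used here are aligner, peak caller, threshold and depth. The deposited score is a whole number of unstated meaning and was used only to rank peaks within a list. Peaks were merged at an overlap of 1 bp or more. For each region the highest-scoring peak of a library gave its percentile, and distances ran from the region's edge to the nearest peak (1 bp when adjacent). Lists of equal length took the 33155 highest-scoring peaks, with ties broken by width and then by a seeded draw. Named regions are the 10 members with and the 10 without DP that rank highest by the lower of their 2 percentiles, and the 10 windows of 100 kb with most members (ties by their share of the regions of both non-transgenic libraries). Of 8 tied groups of 4 neighbouring members the 5 shortest are described, a choice made after their values were seen. The members and rules were chosen with earlier results of these data known. The functions were tested on simulated lists. The tools were scipy 1.17.1, pandas 2.3.3 and numpy 2.4.6 under Python 3.11.15, with plots from matplotlib 3.10.9.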

Additional observations from a re-analysis of the deposited data

How the results depend on the processing

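No paired analysis was possible because each group is 1 library and no result comes from a test. The number of members, 3688 with all peaks, depended on which peaks were used and on how presence and absence were counted. It was 1615 with the upper 50% of each list by score (1082 with DP, 533 without), 1798 with lists of equal length (816 with DP), 2221 with peaks within 150 bp joined (637 without DP), 1968 with no transgenic peak within 200 bp (1359 with DP, 609 without), 1236 with none within 1000 bp (843 with DP, 393 without) and 12493 with absence from transgenic SOX13lo alone (9207 with DP, 3286 without). The share of members with DP was 67.0%, 45.4%, 71.3%, 69.1%, 68.2% and 73.7% in the same order, 64.2% with DP left out of the merging and 62.5% with absence from transgenic SOX13hi alone. It was below that of the other regions under all 9 alternatives. Members outnumbered the reverse class under each alternative that gives both, by a ratio of 1.96 with lists of equal length and 3.60 to 4.48 otherwise. The settings that drop peaks do not keep the same set of members, because transgenic peaks are dropped as well. With lists of equal length, members of that setting met 766 of the 3688. With the upper 50% of each list they met 503, and with peaks wider than 30 bp only (2780 members) 861. Under these settings the DP share and the ratio thus describe many regions outside the 3688. The 10 windows with most members held 48 members, 43 in 50 kb windows and 33 with lists of equal length, where 1 of the 10 windows was the same. The unknown read depth limits every absence.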

Other observations

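The rule is limited to autosomes, and the same pattern was counted on the sex chromosomes. On chromosome X, 123 of 757 regions of both non-transgenic libraries were absent from both transgenic ones (16.2%, 13.7 to 19.1), 74 of them with DP, and the reverse class held 75 of 483 (15.5%, 12.4 to 19.1). On chromosome Y no region of 27 had the pattern, which allows a share of up to 11.1% (3 counts of 27), and the reverse class held 114 of 179 (63.7%, 56.2 to 70.7). On the autosomes the 2 shares were 12.8% and 4.90%. The sex of the animals is not stated, and whether it differed between the genotypes was not tested.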
